A study of Mus musculus with 17 samples.

Results

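The regions described here are 572 binding sites of RUNX1, away from gene ends and free of the chromatin remodeller CHD7, that had no RUNX1 peak in cells making the leukaemia fusion protein CBFB-MYH11. The fusion is abbreviated to CM below. The cells were 416B cells, a mouse myeloid progenitor line, and each line was a clone grown from a single sorted cell. Fusion cells carried a Cbfb-Myh11 type A cDNA, joined through F2A to the red reporter mCherry, under a tetracycline response element. Control cells carried the same kind of plasmid without the fusion. All cells of both kinds also carried the tTS and rtTA regulators and blasticidin resistance under an Ef1alpha promoter. Doxycycline, which switches the element on, was given at 1 µg/ml for 24 hours where indicated. The 4 conditions were CM +Dox, CM -Dox, Control +Dox and Control -Dox, and CM is induced in CM +Dox alone. Chromatin from each condition was precipitated with an antibody to Runx1 and with an antibody to Chd7, in 2 replicates each, which gives 16 peak lists. A clone and its genotype cannot be told apart, since each genotype is represented by cells of clonal origin, and the labels do not say whether replicates came from separate cultures.

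The sites were chosen from the peak calls themselves. Peaks of the 8 RUNX1 lists were merged where they shared at least 1 base, which gave 21664 sites on the mm10 build. Of these, 8531 were called in all 6 RUNX1 libraries without induced CM. A site counts as lost when neither CM +Dox library called it and as kept when both did. It counts as distal when it lies more than 1 kb from both ends of every protein-coding gene, and as CHD7-free when none of the 6 CHD7 libraries without induced CM had a peak on it. The 572 sites are thus distal, CHD7-free and lost, and their loss in CM +Dox is the way they were picked and not a finding. Just outside the rule lay 249 sites called in 5 of the 6 RUNX1 libraries, 290 lost distal sites with a peak in 1 CHD7 library, 127 sites called in 1 CM +Dox library and 75 lost CHD7-free sites at a gene end. At the limit of distance, the nearest sites inside it lay 1044 bp from an end of Tspan1, 1053 bp from Gm33049 and 1053 bp from Klf1. The nearest outside it lay 961 bp from Nf2, 916 bp from Lgr5 and 904 bp from Cnot11.

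RUNX1 is a transcription factor of blood stem and progenitor cells that binds DNA through its Runt domain, with CBFB as a partner that raises its affinity. CM joins most of CBFB to the tail of a smooth muscle myosin heavy chain, is made by the inversion of chromosome 16 in acute myeloid leukaemia, and binds RUNX1 strongly. CHD7 is an ATP-dependent chromatin remodeller, known for its part in neural crest development, that is found at many enhancers. Distal sites of a factor such as RUNX1 are commonly enhancers, which may act on genes far away. A single site is named below by the gene whose body holds it or, failing that, the nearest protein-coding one. Where a gene is instead called linked to a site, the site lies in it or within 50 kb of it. Another gene may then hold the site or lie nearer to it. No named gene is a shown target. RNA was not measured in the files used here, so the identity of the cells could not be checked against marker expression.

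Sequence is shown for sites that overlap an annotated promoter window, because the windows, which run from 250 bases before a transcript start to 50 bases after it, were the sequence at hand. Such starts lie inside genes or belong to noncoding genes, since all 572 sites are away from gene ends. Windows were given for 20 chromosomes, on which 556 of the 572 sites lie, and 15 of these sites (2.70%, Wilson 95% interval 1.64 to 4.40) overlapped one, against 31 of 263 kept distal CHD7-free sites (11.8%, 8.43 to 16.2). All such intervals cover counting error only. The lines below give the part of the window under the site, 5′ to 3′ on the gene's strand, from RefSeq's GRCm38.p6 assembly. Capitals mark the hexamers of the RUNX recognition sequence, searched as TGTGGT and TGCGGT on both strands, so that a match on the other strand reads ACCACA or ACCGCA. Gm38734 is shown as the window at a site of very high RUNX1 rank, Mylk and Gp9 as windows with a pair of hexamers, Pou2f2 as the window of a gene with 3 lost CHD7-free sites, and Atp8b4 as a window with none.
Gm38734: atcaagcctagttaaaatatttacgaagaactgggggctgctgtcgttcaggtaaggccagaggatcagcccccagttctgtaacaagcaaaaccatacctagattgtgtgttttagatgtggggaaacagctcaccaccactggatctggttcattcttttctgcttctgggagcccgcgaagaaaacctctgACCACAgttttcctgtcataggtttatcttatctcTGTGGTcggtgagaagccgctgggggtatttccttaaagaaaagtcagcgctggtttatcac
Mylk: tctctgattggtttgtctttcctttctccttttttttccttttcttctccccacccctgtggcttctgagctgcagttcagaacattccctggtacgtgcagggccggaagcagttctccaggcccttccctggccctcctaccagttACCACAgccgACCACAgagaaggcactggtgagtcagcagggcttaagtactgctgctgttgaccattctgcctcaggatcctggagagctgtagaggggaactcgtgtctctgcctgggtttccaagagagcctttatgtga
Gp9: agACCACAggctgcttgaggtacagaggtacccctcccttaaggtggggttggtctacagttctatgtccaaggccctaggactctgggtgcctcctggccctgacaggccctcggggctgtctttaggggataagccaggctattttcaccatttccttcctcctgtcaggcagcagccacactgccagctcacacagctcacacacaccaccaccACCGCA
Pou2f2: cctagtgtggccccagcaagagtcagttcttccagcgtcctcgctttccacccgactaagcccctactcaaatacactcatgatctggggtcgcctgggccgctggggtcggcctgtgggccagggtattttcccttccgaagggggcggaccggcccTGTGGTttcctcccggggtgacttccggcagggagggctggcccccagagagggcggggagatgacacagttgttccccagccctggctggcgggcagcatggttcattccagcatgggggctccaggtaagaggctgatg
Atp8b4: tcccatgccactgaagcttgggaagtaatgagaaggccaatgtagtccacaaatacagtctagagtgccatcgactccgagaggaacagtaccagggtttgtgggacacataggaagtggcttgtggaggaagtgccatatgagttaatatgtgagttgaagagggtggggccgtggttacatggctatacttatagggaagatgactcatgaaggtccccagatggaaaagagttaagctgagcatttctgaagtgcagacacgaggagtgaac

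The Gm38734 stretch is chr5:143132884-143133174, in the promoter of a noncoding gene 19.8 kb from Rnf216. It held TGTGGT 2 times, on opposite strands. The Mylk stretch, chr16:34784709-34784999, lies 39.5 kb inside the gene for myosin light chain kinase and held the hexamer 2 times on the same strand. The Gp9 stretch, chr6:87777897-87778119, belongs to the gene for platelet glycoprotein IX and held 1 match of each hexamer. The Pou2f2 stretch, chr7:25132411-25132709, belongs to an internal start of a gene for an octamer-binding transcription factor and held 1 match. The Atp8b4 stretch, chr2:126491520-126491794, held no match of these letters. Of the 15 stretches of window under lost CHD7-free sites, which were 4 to 300 bases long, 8 held TGTGGT, 5 held TGCGGT and 10 held either. Of 38 windows at 31 kept CHD7-free sites, 7 held TGTGGT, 3 held TGCGGT and 10 held either. Over all 32851 windows, of 300 bases, the shares were 16.8% for TGTGGT, 6.45% for TGCGGT and 22.4% for either. The lengths searched differ, so these counts and shares are not like for like. A match is a stretch of letters, and no protein was shown to occupy it.

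The lists differed in length, and this bears on every count of calls. The RUNX1 lists held 8140 and 9710 peaks in CM +Dox, against 12603 to 16163 peaks in the 6 libraries without induced CM, so both CM +Dox lists were the shortest. The CHD7 lists held 33462 and 31688 peaks in CM +Dox, against 16323 to 37698 peaks in the other 6. The lists hold no read counts, so sequencing depth is unknown. Peak names carry a p-value threshold of 1e-07 or 1e-09 in the RUNX1 lists and 0.01 in the CHD7 lists. The CM +Dox RUNX1 lists differed in this, with 1e-07 in replicate 1 and 1e-09 in replicate 2. Of the 127 distal CHD7-free sites called in 1 CM +Dox library, 14 were called in replicate 1 and 113 in replicate 2. With 1e-09 applied to every RUNX1 list, the rule gave 571 sites. In 1 list, that of RUNX1 replicate 1 from uninduced control cells, the peak names hold a +Dox tag that goes against the label, and the label was followed. Leaving that library out gave a loss of 59.0% of distal CHD7-free sites.

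Loss was more frequent the fewer CHD7 libraries called a distal site. Among all 8531 sites called in the 6 RUNX1 libraries, 27.9% were lost, and among the 5927 distal ones 34.1% were lost. Of the 968 distal CHD7-free sites, 572 were lost (59.1%, 56.0 to 62.1), 127 were called in 1 CM +Dox library (13.1%) and 269 were kept (27.8%). These shares follow from the rule and are given as a description. The lost share was 46.0% of 630 sites with a peak in 1 CHD7 library, 41.3% of 591 sites with 2, 36.6% of 582 sites with 3, 32.8% of 606 sites with 4 and 27.2% of 720 sites with 5. It was lowest, at 16.7%, among the 1830 sites called in all 6 CHD7 libraries. At gene ends the lost share was 14.0% of 2604 sites, and 16.1% of the 466 that were CHD7-free (13.0 to 19.7), which is an interval that holds the 14.0% of all gene-end sites.

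**Figure D1:**
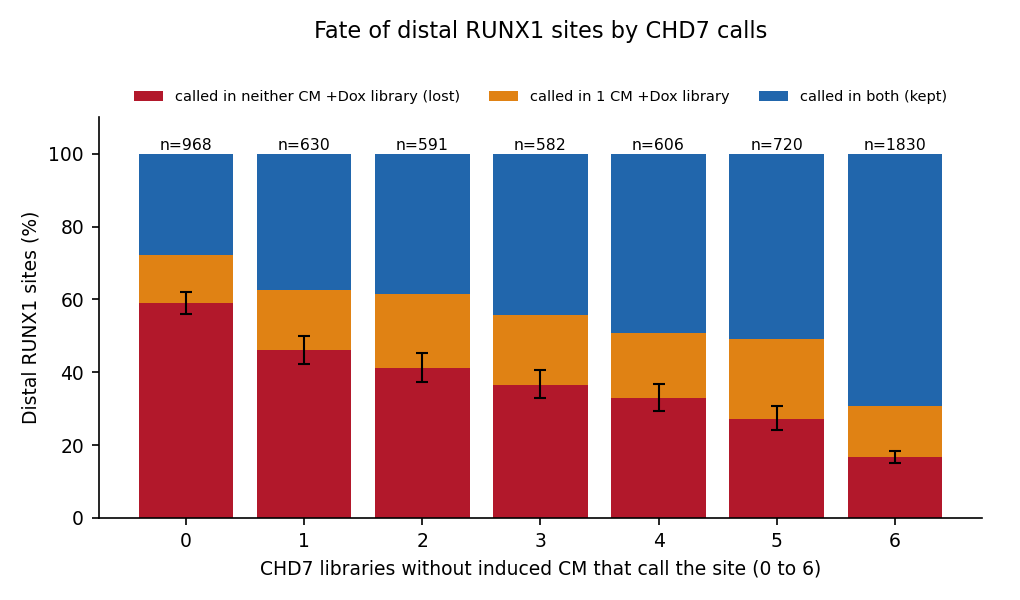
Share of distal RUNX1 sites (%) that had a RUNX1 peak in 0, 1 or both CM +Dox libraries, by the number of CHD7 libraries without induced CM that call the site. Bars are stacked shares, error bars are Wilson 95% intervals of the lost share, n is the number of sites. The lost share is 59.1% at 0 libraries and 16.7% at 6.

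When all RUNX1 lists were trimmed to the 8140 highest-scoring peaks, the lost share was 54.5% of 527 distal CHD7-free sites and 12.2% of 1309 sites called in all 6 CHD7 libraries. The lost share of CHD7-free sites was above that of sites with CHD7 in all 6 in each of the 24 alternative ways of calling that bear on these shares, this one included, with values from 54.5% to 70.7% for CHD7-free sites and from 12.2% to 32.5% for sites with CHD7 in all 6.

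Sites with CHD7 also had stronger RUNX1 peaks. The strength of a peak is given here as the percentile rank of its deposited score within its own list, where 100 is the highest, and the mean over the 6 RUNX1 libraries without induced CM is called the mean rank. The median of the mean rank was 63.2 for the 968 distal CHD7-free sites, against 79.1 for the sites with CHD7 in all 6 libraries. The distal sites were therefore split by mean rank into 4 groups of equal size. In the lowest group, 67.8% of 283 CHD7-free sites were lost (62.2 to 73.0), against 33.0% of 382 sites with CHD7 in all 6 libraries (28.5 to 37.8). In the highest group, 36.8% of 114 CHD7-free sites were lost (28.6 to 46.0), against 8.23% of 717 sites with CHD7 in all 6 libraries (6.43 to 10.5). The intervals of these classes did not overlap in any of the 4 groups. These values follow from the calls that define the sites and are a description. The groups are wide, and the classes fill them unevenly: the median mean rank was 42.0 for CHD7-free sites and 38.4 for sites with CHD7 in all 6 in the lowest group, and 90.2 and 94.9 for the same classes in the highest. The part of rank in the difference between the classes was not tested. Within both classes the lost share was lower at higher rank, and the interval of the strongest CHD7-free sites overlapped that of the weakest sites with CHD7 in all 6.

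**Figure D2:**
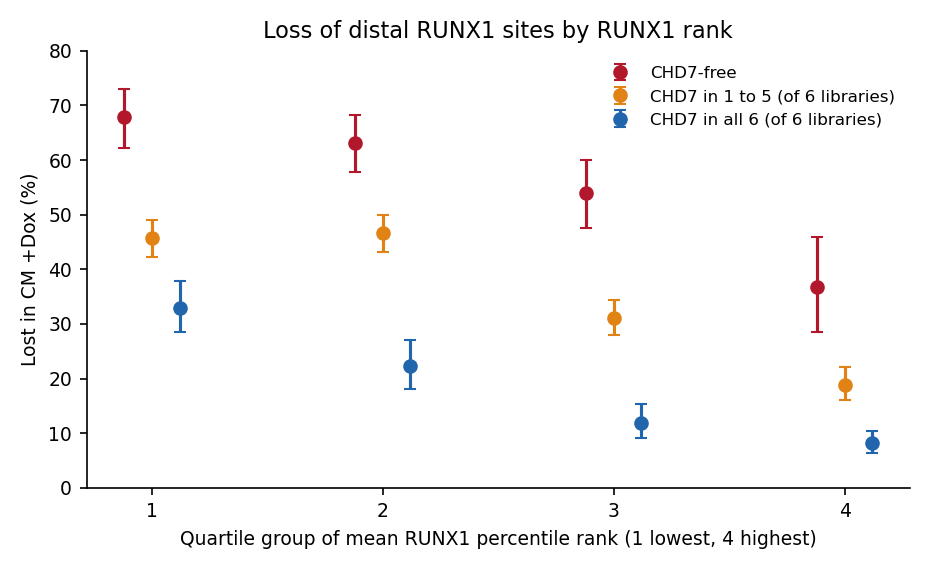
Share of distal RUNX1 sites lost in CM +Dox (%) in 4 groups of equal size by mean RUNX1 percentile rank (1 lowest, 4 highest), for CHD7-free sites, sites with CHD7 in 1 to 5 libraries and sites with CHD7 in all 6. Points are shares and error bars Wilson 95% intervals; CHD7-free sites are highest in every group, from 67.8% in the lowest to 36.8% in the highest.

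The 572 lost CHD7-free sites ranked below the kept ones in every RUNX1 list without induced CM. Their median rank was 59.7 and 65.1 in the CM -Dox libraries, 59.9 and 62.7 in the Control +Dox libraries, and 61.1 and 66.1 in the Control -Dox libraries. A site had to be called in all 6 lists, which favours high ranks. The mean rank of all 5927 distal sites so called had a median of 70.2, and that of the lost CHD7-free sites had a median of 60.0. The median rank averaged 62.5 ± 2.69 for lost CHD7-free sites and 73.8 ± 1.42 for kept CHD7-free sites (SD, n = 6 libraries). The difference was -11.4 ± 2.36 (SD, n = 6), and lost sites were lower in 6 of 6 libraries. Lost distal sites with CHD7 in all 6 libraries had a median rank of 60.7 ± 4.86 (SD, n = 6). The lost CHD7-free sites differed from them by 1.75 ± 2.37 (SD, n = 6) and were lower in 3 of 6 libraries, so a difference was smaller than the spread between libraries. Sites called in 1 CM +Dox library averaged 64.2 ± 3.13 (SD, n = 6).

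**Figure D3:**
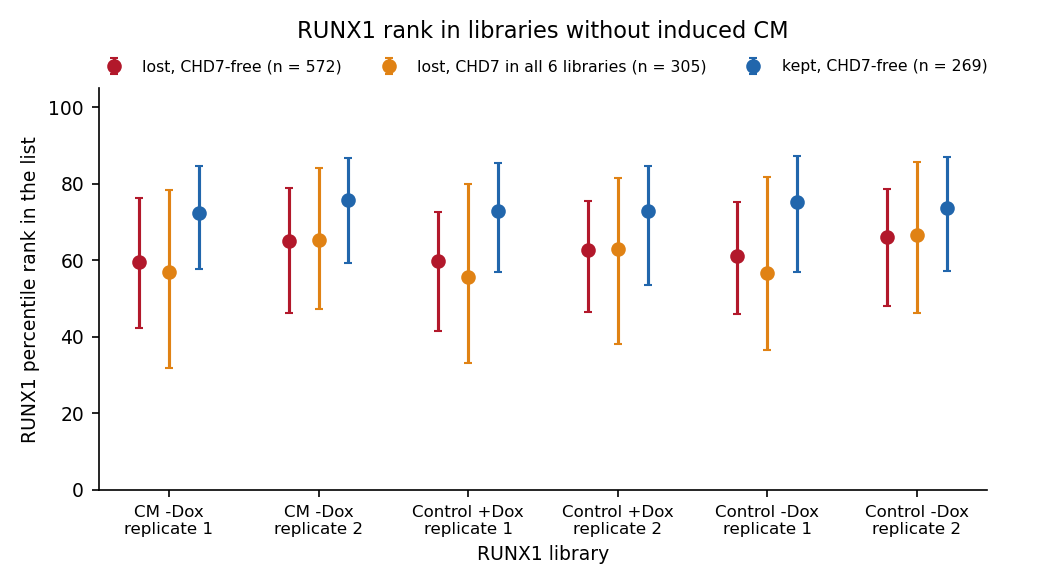
Median RUNX1 percentile rank in each of the 6 libraries without induced CM, with bars from the lower to the upper quartile over sites, for 572 lost CHD7-free sites, 305 lost sites with CHD7 in all 6 libraries and 269 kept CHD7-free sites. The medians of lost CHD7-free sites lie between 59.7 and 66.1, below those of kept CHD7-free sites in each library.

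The sites varied widely among themselves. Their mean rank ran from 6.68 to 97.2, with quartiles of 47.7 and 72.8. The SD of the rank of a site over the 6 libraries had a median of 11.2 and ran from 0.76 to 40.3.

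The 10 sites of highest mean rank lay near Aff3, Insig1, Rnf216, Irgq and Sik1 and inside Ccdc102a, Ldah, Ky, Greb1 and Cd80. Scores of different lists share no scale, so each site is given by its percentile rank in each list. The 6 lists hold 12603 to 16163 peaks, so a difference in rank is one of place within a list and not a measured change in binding. The top site, chr1:38694045-38694608, lay 63.9 kb from Aff3, which encodes a nuclear protein of the AF4 family. It ranked 95.3 and 93.3 in CM -Dox, against 99.3 and 98.3 in Control +Dox and 98.7 and 98.2 in Control -Dox. Its CM -Dox ranks were both below those of every control library. The second, chr5:28013906-28014314, lay 57.1 kb from Insig1, which encodes a membrane protein that restrains cholesterol synthesis. It ranked 97.8 and 97.9 in CM -Dox, against 96.5 and 94.9 in Control +Dox and 97.0 and 97.3 in Control -Dox. Here the CM -Dox ranks were both above those of every control library. The site near Rnf216, the gene of a ubiquitin ligase, is the one in the Gm38734 promoter shown above. It ranked 95.4 and 98.4 in CM -Dox, against 92.9 and 97.3 in Control +Dox and 94.9 and 97.4 in Control -Dox, and the groups overlapped.

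The site inside Ccdc102a, chr8:94916555-94916948, was the most even of all 572 across libraries, with an SD of rank of 0.76. It ranked 95.6 and 96.0 in CM -Dox, against 95.3 and 94.7 in Control +Dox and 97.0 and 96.2 in Control -Dox. The site inside Cd80, which encodes a ligand of the T cell receptors CD28 and CTLA4, ranked 85.4 and 89.7 in CM -Dox, against 95.5 and 93.3 in Control +Dox and 95.1 and 94.4 in Control -Dox. Both CM -Dox ranks were below all 4 control ranks. The site inside Greb1, a gene induced by oestrogen in human breast cancer cells, ranked 85.4 and 77.9 in CM -Dox, against 98.1 and 97.3 in Control +Dox and 98.5 and 96.8 in Control -Dox. Both CM -Dox ranks were again below all 4 control ranks. The sites near Irgq and Sik1 and in Ldah and Ky had mean ranks of 95.2, 93.2, 93.9 and 92.3. Sik1 encodes a salt-inducible kinase, Ldah a lipid droplet hydrolase and Ky a muscle protein. None of the 10 had a CHD7 peak in either CM +Dox library.

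The 5 sites of lowest mean rank lay near Cfap45 and Bahcc1 and in Rab20, Arhgef18 and Scimp, with mean ranks of 6.68, 10.7, 14.0, 16.8 and 18.2. The site near Cfap45 ranked 2.72 and 11.5 in CM -Dox, against 0.168 and 0.583 in Control +Dox and 18.4 and 6.68 in Control -Dox. The groups overlapped, and such ranks lie near the lower end of the lists.

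Across all 572 sites, the medians of the uninduced fusion clone and the control cells differed by less than the spread between libraries. The median rank averaged 62.4 ± 3.87 in CM -Dox (SD, n = 2 libraries), against 62.5 ± 2.66 in Control (SD, n = 4 libraries). In Control it averaged 61.3 ± 1.97 with doxycycline and 63.6 ± 3.49 without (SD, n = 2 each). The difference of CM -Dox minus Control in mean rank, site by site, had a median of -0.63, with quartiles of -11.1 and 10.4, and 295 of the 572 sites were lower in CM -Dox. Single sites differed far more, from -55.2 to 78.0. The 269 kept CHD7-free sites ranged from -34.4 to 38.5, and the 305 lost sites with CHD7 in all 6 libraries from -70.0 to 34.8.

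The 5 sites highest in CM -Dox against Control lay near Tle4 and Dnase1 and in Tcf7l2, Tnfrsf9 and Rnf150. They were picked for this difference, so their values are a description with no test. The site near Tle4, chr19:14620401-14620888, lay 22.2 kb from the gene of a Groucho-family corepressor, a class of protein that RUNX factors are known to recruit. It ranked 89.9 and 93.6 in CM -Dox, against 16.1 and 16.3 in Control +Dox and 10.9 and 11.96 in Control -Dox. The site in Tcf7l2, chr19:55768839-55769236, lay in the gene of a transcription factor of Wnt signalling. It ranked 89.7 and 92.0 in CM -Dox, against 27.0 and 41.8 in Control +Dox and 17.1 and 29.0 in Control -Dox. In both, the CM -Dox ranks were far above all 4 control ranks. The lack of a CM +Dox call at these sites is part of the rule that chose them and not a finding. The site in Tnfrsf9, the gene of the costimulatory receptor 4-1BB, ranked 84.9 and 79.4 in CM -Dox, against 26.8 and 18.9 in Control +Dox and 33.7 and 28.1 in Control -Dox. The site near Dnase1, a nuclease gene, ranked 64.7 and 81.4 in CM -Dox, against 0.209 and 3.63 in Control +Dox and 21.0 and 17.3 in Control -Dox.

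The 5 sites lowest in CM -Dox against Control lay near Irs2, Commd7 and Tut7 and in Ell and Bace2. The site near Irs2, chr8:11047800-11048183, lay 38.9 kb from the gene of an adaptor of the insulin receptor. It ranked 19.7 and 35.7 in CM -Dox, against 74.8 and 84.9 in Control +Dox and 85.9 and 86.0 in Control -Dox. Another lost CHD7-free site named by Irs2, chr8:10866056-10866426, lay 118 kb from the gene and did not share this order. That site ranked 86.8 and 85.5 in CM -Dox, against 75.7 and 85.4 in Control +Dox and 82.0 and 84.8 in Control -Dox. The site in Ell, the gene of an RNA polymerase II elongation factor, ranked 12.5 and 33.5 in CM -Dox, against 78.0 and 79.2 in Control +Dox and 63.4 and 78.4 in Control -Dox. In Bace2, the gene of an aspartic protease, the ranks were 9.17 and 45.2 in CM -Dox, against 71.8 and 77.4 in Control +Dox and 73.6 and 78.3 in Control -Dox. At the 5 sites lowest in CM -Dox against Control, no CM -Dox rank reached the lowest control rank. Such differences also separate the fusion clone from the control clone, and clone and genotype cannot be told apart.

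**Figure D4:**
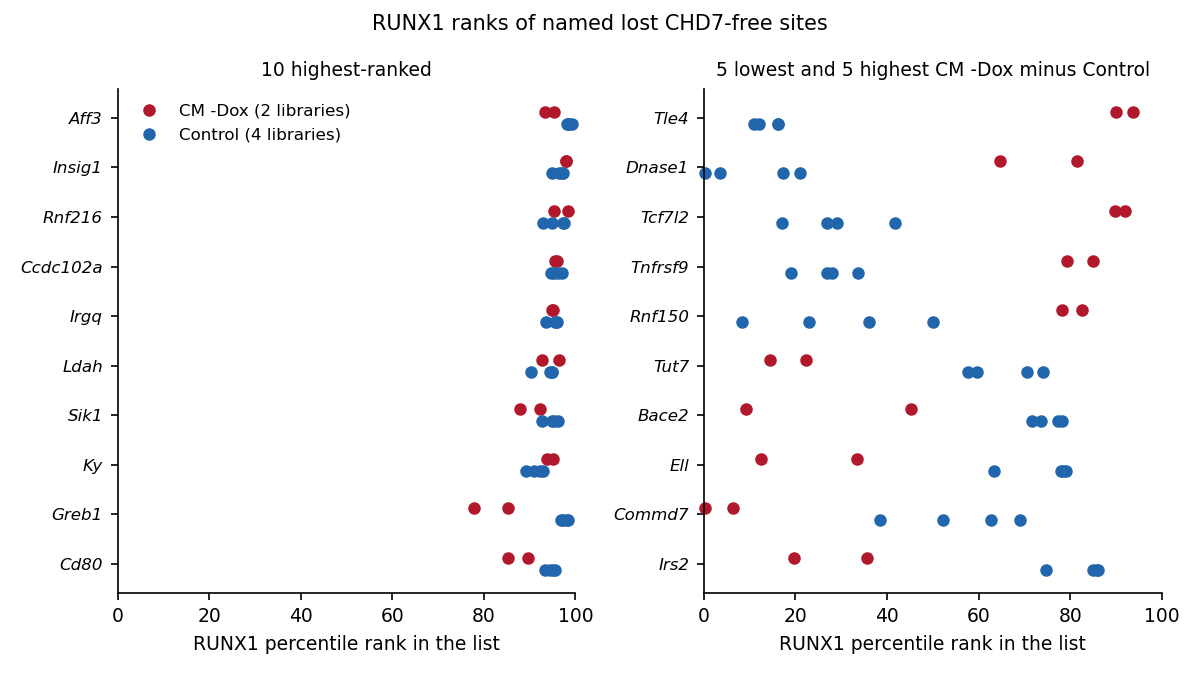
RUNX1 percentile rank of named lost CHD7-free sites in the 2 CM -Dox and 4 Control libraries, each point a library. Left, the 10 sites of highest mean rank; right, the sites with the largest differences between CM -Dox and Control, from Tle4, with ranks of 89.9 and 93.6 in CM -Dox and 10.9 to 16.3 in Control, to Irs2, where the order is opposite.

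CHD7 was scarcely found at the lost CHD7-free sites in cells with induced CM, in CHD7 libraries that the choice of sites did not use. CHD7 had a peak at 11 of the 572 sites in CM +Dox replicate 1 (1.92%, 1.08 to 3.41) and at 9 in replicate 2 (1.57%, 0.83 to 2.96). At the 269 kept CHD7-free sites it had a peak at 24 in replicate 1 (8.92%, 6.07 to 12.9) and at 38 in replicate 2 (14.1%, 10.5 to 18.8). The mean was 1.75% ± 0.25 at lost CHD7-free sites and 11.5% ± 3.68 at kept ones (SD, n = 2 libraries each), and the intervals did not overlap in either replicate. Lost and kept sites were told apart by RUNX1 calls in CM +Dox, the same condition, and kept sites ranked higher in RUNX1. The shares are therefore a description, and the part of RUNX1 rank in them was not tested. Over all 968 distal CHD7-free sites the shares were 4.24% in replicate 1 and 5.58% in replicate 2. Over all 8531 sites they were 42.6% in replicate 1 and 55.6% in replicate 2. Sites called in 1 CM +Dox RUNX1 library lay between, at 4.72% in replicate 1 and 5.51% in replicate 2. At the 305 lost distal sites with CHD7 in all 6 other libraries, CHD7 was still called at 55.1% in replicate 1 and 68.2% in replicate 2.

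Only 2 lost CHD7-free sites were called by CHD7 in both CM +Dox libraries, 1 near Hmox1, the gene of haem oxygenase 1, and 1 in Pitpnb, the gene of a phosphatidylinositol transfer protein. The Hmox1 site, chr8:75084702-75084979, had CHD7 ranks of 57.1 in replicate 1 and 10.2 in replicate 2. The Pitpnb site, chr5:111341666-111341977, had CHD7 ranks of 55.8 in replicate 1 and 10.2 in replicate 2. In replicate 2 both calls were thus among the weaker peaks of the list.

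The 6 CHD7 libraries without induced CM have no peak at these sites by the rule. For a measure open to all 8 CHD7 libraries, each was therefore also asked how many distal sites it called among those that none of the other 7 called. The footing is still unequal at lost sites, which were chosen for RUNX1 peaks without induced CM and for none in CM +Dox. That choice may itself favour a lower CHD7 share in CM +Dox, so the shares are a description. This measure was added after the data were seen. At lost distal sites, the share was 1.60% (0.84 to 3.01) and 1.25% (0.61 to 2.55) in CM +Dox, against 2.81% and 14.1% in CM -Dox, 1.77% and 12.9% in Control +Dox and 2.29% and 8.28% in Control -Dox. Libraries without induced CM whose lists were of similar length to those of CM +Dox, with 32448 and 37698 peaks, called 12.9% and 14.1%, so both CM +Dox values were below them. At kept distal sites, the share was 6.06% (3.64 to 9.91) and 11.4% (8.03 to 16.0) in CM +Dox, against 1.81% to 20.8% in the other 6 libraries. The lists of 32448 and 37698 peaks called 17.2% and 20.8% of kept sites, so there too both CM +Dox values were below them.

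**Figure D5:**
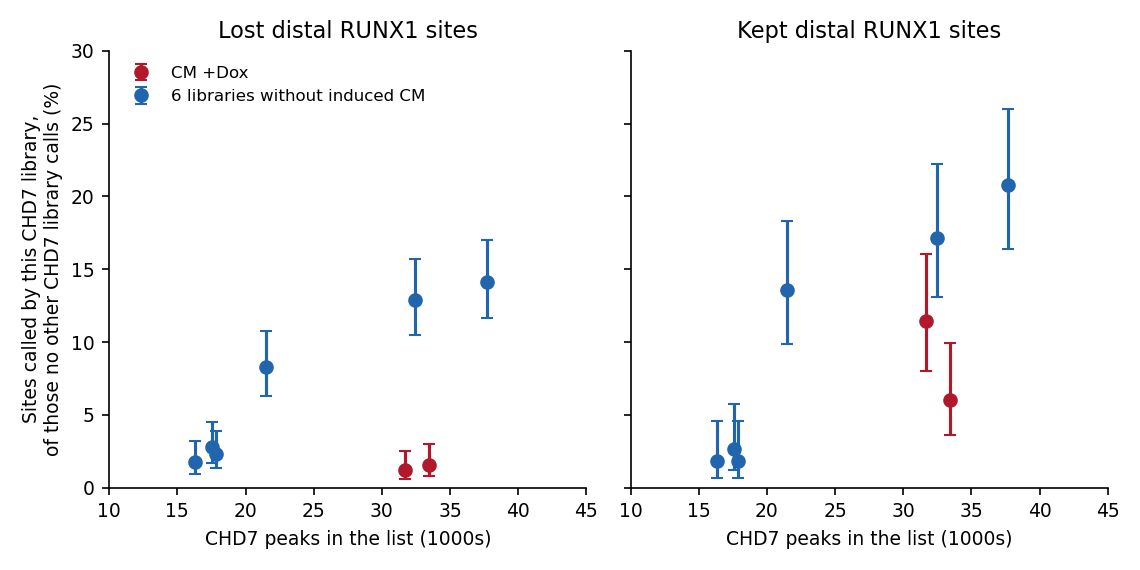
Share of distal RUNX1 sites (%) called by a CHD7 library among those that none of the other 7 CHD7 libraries called, against the number of CHD7 peaks in that library's list (in units of 1000), for lost and kept sites. Points are libraries, error bars Wilson 95% intervals. At lost sites both CM +Dox libraries lie at 1.60% and 1.25%, below the 12.9% and 14.1% of the other long lists.

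Few lost CHD7-free sites had a separate CM +Dox RUNX1 peak close by. A shifted peak that still overlapped a site would count as a call, so the rule leaves out such sites. A CM +Dox RUNX1 peak lay within 1 kb of 12 of the 572 sites in replicate 1 (2.10%, 1.20 to 3.63) and of 14 in replicate 2 (2.45%, 1.46 to 4.07), and within 500 bp of 4 sites in each. Within 1 kb of lost sites with CHD7 in all 6 libraries, the shares were 2.95% in replicate 1 and 5.25% in replicate 2. A CHD7 peak of the libraries without induced CM lay within 500 bp, though not on the site, at 6 to 29 of the 572 sites. That is 1.05% to 5.07%, much like the 1.12% to 5.20% of the 269 kept CHD7-free sites.

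The lost CHD7-free sites lay farther than the kept ones from RUNX1 sites called in all 8 libraries. A RUNX1 site called in all 8 libraries lay within 50 kb of 220 of the 572 lost CHD7-free sites (38.5%), against 151 of 269 kept CHD7-free sites (56.1%, 50.2 to 61.9). The gap to the nearest such site had a median of 79.5 kb for lost CHD7-free sites and 39.4 kb for kept ones. Lost sites with CHD7 in all 6 libraries lay between, with 44.6% within 50 kb and a median gap of 62.8 kb. The distance was not particular to sites called in all 8 libraries. The gap to the nearest RUNX1 site of any kind had a median of 14.5 kb for lost CHD7-free sites and 9.5 kb for kept ones. Another lost RUNX1 site lay within 50 kb of 26.9% of lost CHD7-free sites, against 28.3% of kept ones, and these intervals overlapped (23.5 to 30.7 and 23.2 to 33.9). Lost CHD7-free sites lay inside a protein-coding gene in 317 cases (55.4%, 51.3 to 59.4), against 174 kept sites (64.7%, 58.8 to 70.2), and these intervals overlapped slightly. For lost sites with CHD7 in all 6 libraries the share was 52.5% (46.9 to 58.0). The distance to the nearest gene end had a median of 15.4 kb for lost CHD7-free sites, with quartiles of 6.10 and 42.4 kb, and 12.8 kb for kept ones. Annotated lncRNA genes held 80 lost CHD7-free sites (14.0%), against 45 kept ones (16.7%). Neither kind of gene held 190 lost CHD7-free sites (33.2%), against 72 kept ones (26.8%). The reference table gave no exons, so exonic and intronic sites are not distinguished here. The sites were narrow, with a median width of 337 bp for lost CHD7-free sites, 389 bp for kept CHD7-free sites and 429 bp for lost sites with CHD7 in all 6 libraries.

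The sites were scattered over the genome. They numbered from 7 on chromosome X and 8 on chromosome 19 to 53 on chromosome 11. These were 7 of 10 distal CHD7-free sites on chromosome X (70.0%), 8 of 9 on chromosome 19 (88.9%) and 53 of 86 on chromosome 11 (61.6%). The share was lowest on chromosome 15, at 18 of 38 (47.4%), against 59.1% over all 968 such sites. Within 10 kb of each other lay 23 sites in 11 clusters, of which the largest held 3 sites, with mean ranks of 47.3 to 65.7, near Ece1, the gene of endothelin-converting enzyme 1. A gene is called linked to a site that overlaps it or lies up to 50 kb outside it. By this measure, 1150 of 21887 protein-coding genes were linked to at least 1 lost CHD7-free site (5.25%), 70 genes to 2 or more, and 65 sites to no gene. The genes linked to most were Pou2f2, Agap1, Ece1, Gm46963 and Asprv1 with 3 sites each, and Prkca also had 3 and is named after its values were seen. Gm46963 and Asprv1 are neighbours and share the same 3 sites. Pou2f2 had 6 RUNX1 sites called in all 6 libraries, of which 4 were lost, and Agap1 had 6, of which 5 were lost. Pou2f2 encodes the lymphoid octamer factor OCT2 and Prkca protein kinase C alpha.

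Of 10 lists of genes, those of myeloid and adhesion functions held linked genes, as did those of stem cell factors, the megakaryocyte and mast cell lineages, signalling, cell survival and chromatin. Each count below stands beside the 5.25% of all genes and, among genes with a RUNX1 site called in all 6 libraries, beside 10.8%, and the lists hold 12 to 25 genes, so single genes move the shares. Most lists also had more RUNX1 sites at hand than genes at large. A RUNX1 site called in all 6 libraries was linked to 48.8% of all genes, against 22 of 24 stem and progenitor factors and 16 of 20 adhesion genes. Among genes with such a site, the linked share was 13.6% for stem and progenitor factors, 13.3% for myeloid, 11.1% for signalling, 17.6% for chromatin and 5% for cell cycle genes, near the 10.8% of all such genes at these list sizes, and 30.8% for megakaryocyte and mast cell and 31.2% for adhesion genes, on 4 and 5 linked genes. Within 10 kb, 1 of 20 adhesion genes and 3 of 19 megakaryocyte and mast cell genes were linked, against 2.18% of all genes. Most adhesion links were thus distant ones.

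Among stem and progenitor transcription factors, 3 of 24 genes were linked: Runx1, Zfpm1 and Lyl1. Runx1 itself was linked to 1 lost CHD7-free site, chr16:92653877-92654253, 52.4 kb inside the gene, with a mean rank of 91.2. It ranked 96.3 and 97.0 in CM -Dox, against 88.6 and 87.3 in Control +Dox and 88.6 and 89.0 in Control -Dox, so both CM -Dox ranks were above all control ranks. It was 1 of 10 RUNX1 sites linked to Runx1 that were called in all 6 libraries, of which 3 were lost. Another lost CHD7-free site, chr16:93147557-93147873, with a mean rank of 79.7, had Runx1 as its nearest gene. It lay 321 kb away and so is not counted as linked. Zfpm1, which encodes the GATA partner FOG1, had 2 lost CHD7-free sites and 3 kept ones among 8 sites. Of the 2 lost CHD7-free sites, 1 lies inside Zfp469 and 1 is nearer to Trhr2. Lyl1, a bHLH factor of stem cells, had 1 lost CHD7-free site among 6 sites, of which 3 were lost. Chd7 had none among 6 linked RUNX1 sites, Myh11 none among 2, and Cbfb had no RUNX1 site called in all 6 libraries.

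Among myeloid differentiation genes, 2 of 25 were linked, Cebpe and Mpo. The site 4.14 kb from Cebpe, a factor of late granulocyte maturation, was the only RUNX1 site linked to that gene that was called in all 6 libraries. It ranked 77.0 and 79.0 in CM -Dox, against 92.3 and 93.1 in Control +Dox and 93.1 and 90.6 in Control -Dox. Both CM -Dox ranks were below all control ranks. Mpo, the gene of myeloperoxidase, had 1 lost CHD7-free site 41.8 kb away, among 4 sites of which 2 were lost. That lost CHD7-free site is nearer to Tspoap1.

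Among megakaryocyte and mast cell genes, 4 of 19 were linked, among them Tpsb2, Kit and Gp9. The site inside Kit, the receptor of stem cell factor, chr5:75633258-75633597, was the sole RUNX1 site of all 6 libraries linked to that gene. It ranked 59.8 and 65.4 in CM -Dox, against 41.4 and 47.1 in Control +Dox and 55.8 and 68.7 in Control -Dox, and the groups overlapped. The Gp9 site, whose sequence is shown above, ranked 14.6 and 49.9 in CM -Dox, against 48.9 and 50.2 in Control +Dox and 26.8 and 44.9 in Control -Dox, and the groups overlapped. The site linked to Tpsb2, a mast cell tryptase, lay 49.4 kb away with a mean rank of 88.7 and is nearer to Prss29.

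Among adhesion and migration genes, 5 of 20 were linked, including Itgal and Itgb2, which encode the chains of the integrin LFA-1, Selplg, which encodes the selectin ligand PSGL-1, and Itgb3, which encodes the beta chain of the platelet integrin. Selplg had 2 such sites. Their best sites had mean ranks of 78.0, 68.8, 68.6 and 64.8. The Itgal site is nearer to Zfp768, the Itgb2 site lies inside Pttg1ip, and the best Selplg site is nearer to Tmem119. Among signalling genes, 2 of 20 were linked, Smad3 and Socs3. The site inside Smad3, a mediator of TGF-beta signals, chr9:63743880-63744263, ranked 90.5 and 91.0 in CM -Dox, against 70.0 and 81.4 in Control +Dox and 72.8 and 82.9 in Control -Dox. Both CM -Dox ranks were above all control ranks. Socs3, a feedback inhibitor of cytokine receptors, had 2 lost CHD7-free sites.

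Among chromatin genes, 3 of 18 were linked: Arid1b, a subunit of the SWI/SNF complex with 2 sites, Chd2 and Chd4. Their best sites had mean ranks of 79.6, 56.8 and 42.7. Among cell cycle and survival genes, 1 of 20 was linked, Mcl1, an inhibitor of cell death, 44.3 kb from its site. That site is nearer to Adamtsl4. None of 16 lymphoid, 12 liver and 16 neural crest genes was linked to a lost CHD7-free site. Fewer of these had a RUNX1 site to lose, since 6 lymphoid, 6 liver and 2 neural crest genes were linked to a site called in all 6 libraries. With a link of 10 kb in place of 50 kb, 11 of the 190 list genes were linked (5.79%), against 2.18% of all genes, and these 11 were 55.0% of the list genes linked at 50 kb, against 41.6% for all genes.

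The strongest distal CHD7-free sites that were called in exactly 1 CM +Dox library, and so fell just outside the rule, lay in Ddc, Sh2d5, Zyx, Prkcz and Litaf. The site in Ddc, chr11:11836692-11837181, had a mean rank of 97.0 in the libraries without induced CM and a rank of 61.1 in CM +Dox replicate 2. Those in Sh2d5, Zyx and Litaf had mean ranks of 94.1, 91.2 and 88.6, with ranks of 43.6, 12.6 and 43.3 in CM +Dox replicate 2. That in Prkcz had a mean rank of 91.2 and a rank of 35.1 in CM +Dox replicate 1. The CM +Dox lists are shorter, so these ranks stand side by side and do not measure a change in binding. The sites were also chosen for a call in exactly 1 CM +Dox library, which may itself favour low ranks there.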

How the data were processed

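RUNX1 and CHD7 binding was measured by ChIP-seq. Per the submitters' processing notes, reads were handled with Bowtie2 2.0.6 and MACS2 2.0.10 on mm10. The authors deposited a peak list per library, each peak with a −log10 p-value, which is its score here; per the peak names, thresholds were 1e-07 or 1e-09 for RUNX1 and 0.01 for CHD7. An IgG library is not analysed here. Lists of different depth share no scale, so scores were ranked within each list. Sites were merged at 1 bp, and genes came from RefSeq's GRCm38.p6 table, the assembly also called mm10 (21887 protein-coding genes). The sites, gene lists (190 of 191 genes matched) and rules were chosen with earlier results of these data known. No test was made: shares carry Wilson 95% intervals for counting error, and library means an SD. The intervals treat sites as independent, so they say nothing about variation between cultures.

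Named sites are the 10 highest and 5 lowest by mean rank, those with CHD7 in both CM +Dox libraries, up to 4 linked genes per list (1 is not reported here), the 5 lowest and 5 highest by CM -Dox minus Control, the 5 genes linked to most sites, the 5 strongest sites called in 1 CM +Dox library, and Runx1, Chd7, Cbfb and Myh11. Alternatives changed the RUNX1 and CHD7 lists, overlap, gene distance and libraries used. The site rule was tested on simulated peaks. Python 3.11.15, numpy 2.4.6, pandas 2.3.3 and matplotlib 3.10.9 were used.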

Additional observations from a re-analysis of the deposited data

How the results depend on the processing

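Every alternative kept lost CHD7-free sites below kept ones in RUNX1 rank. The number of lost CHD7-free sites was 287 with RUNX1 lists of equal length, 253 with RUNX1 peaks scoring no less than the median of all lists, and 1457 and 975 with the libraries of replicate 1 or of replicate 2 alone. The share of distal CHD7-free sites lost was 54.5% with RUNX1 lists of equal length, 55.3% with CHD7 lists of equal length, and 65.1% and 65.4% with replicate 1 or replicate 2 alone. The share of lost CHD7-free sites called by CHD7 in CM +Dox was 0.70% with RUNX1 lists of equal length, 0.79% with peaks above that median, 1.03% with CHD7 lists of equal length, 1.37% when a call needed 0.5 of the shorter interval, 1.47% with a CHD7 margin of 500 bp, and 4.74% and 3.28% with replicate 1 or replicate 2 alone. The rank difference between lost and kept CHD7-free sites was -18.1 with peaks above that median and -16.4 with replicate 1 alone. The linked list genes fell to 11 at 10 kb. Replicate subsets use fewer libraries, and stricter lists hold fewer peaks. For the other changes the cause was not tested.

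Leaving out each library in turn gave 572 to 685 sites, a lost share of 54.9% to 70.7%, a CHD7 share of 1.57% to 2.59%, a rank difference of -14.1 to -7.90, and 55.3% to 57.8% of sites inside a gene. The highest lost share, 70.7%, came without CM +Dox RUNX1 replicate 2. No paired analysis was possible because no result here comes from a test that could hold a block; the rank difference between lost and kept sites is taken within each library. The planned count of RUNX hexamers around site centres was not run, since promoter windows alone were used here. The lists give no read counts, so a weak peak below a list's threshold and an absent one cannot be told apart.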
